A study of Mus musculus with 4 samples.

Results

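The 33 genes described here carry cholesterol from its synthesis out of acetyl-CoA to its uptake, its movement inside the cell and its export, with the regulators of these steps and 3 genes of fatty acid synthesis. They were chosen by name as a pathway, and all 33 were found among the 13192 genes of the deposited count table. The libraries come from wild-type mouse primary cardiac fibroblasts of neonatal hearts, with a short hairpin RNA against Nr4a3 (shNr4a3, 2 libraries) or a non-targeting hairpin (shNT, 2 libraries), taken at day 7 of treatment; a short hairpin RNA is processed by the cell into a small RNA that lowers its matching transcript. The titles also hold P3, left unexplained in the labels, which do not say whether the 2 libraries of a group are separate cultures, so the p-values measure the spread between these libraries, which may be technical. The purpose stated for the series is to learn how lowering Nr4a3, a nuclear receptor with no known ligand, helps fibroblasts turn into cardiomyocyte-like cells; no reprogramming factor is named for these libraries.

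The table held 34246969 and 34813598 counts in the shNr4a3 libraries and 34068241 and 35111013 in the shNT libraries. Nr4a3 itself had 4 and 8 counts in the shNr4a3 libraries and 60 and 29 in the shNT libraries (log2 fold change -2.98 ± 0.67, SE; adjusted p = 3.22e-04, edgeR). The 10 fibroblast markers were all listed; 4 rose (Col3a1, Pdgfra, Dcn and Lum), 5 fell and 1 did not pass, and their sum of 7384 and 7477 normalised CPM in shNr4a3 against 12984 and 12473 in shNT rests mostly on a few abundant genes such as Col1a1. CPM is a gene's count relative to the total of its library, after scaling of the libraries. Markers of other cell types moved too, where 27.9% of all 13160 tested genes fell and 27.6% rose (adjusted p under 0.05, edgeR). All 9 epicardial and mesothelial markers fell, with sums of 127 and 129 CPM in shNr4a3 against 611 and 585 CPM in shNT. So did all 7 endothelial markers, with 59.8 and 56.0 CPM in shNr4a3 against 228 and 222 CPM in shNT. Of 6 smooth muscle and pericyte markers 5 fell and 1 rose (sums of 231 and 231 CPM in shNr4a3, 589 and 520 CPM in shNT). Macrophage markers summed to 98.7 and 97.6 CPM in shNr4a3 and 56.6 and 56.8 CPM in shNT. Of the 4 macrophage markers tested Lyz2 rose, at 90.9 and 87.8 CPM in shNr4a3 against 40.3 and 42.2 CPM in shNT, Cd68 and Laptm5 fell, and Csf1r did not pass; Adgre1, C1qa and C1qb were unlisted. Of 7 cardiomyocyte markers 5 were listed, with sums of 480 and 506 CPM in shNr4a3 and 1059 and 1003 CPM in shNT; nearly all of this was Tnnt2, which fell, and the other 4 did not pass. Of 6 adipocyte markers Pparg alone was listed, at 2.11 and 2.70 CPM in shNr4a3 and 4.32 and 4.86 CPM in shNT. The part of these other cell types in the sterol gene values was not tested, and in bulk RNA fewer cells of a type cannot be told apart from less RNA per cell.

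Cholesterol is built from acetyl-CoA through mevalonate and the isoprenoids to squalene, which is closed into the first sterol and trimmed step by step. SREBP transcription factors, the products of Srebf1 and Srebf2, switch these enzymes on: Scap carries them out of the endoplasmic reticulum when membranes are poor in sterol, and the Insig proteins hold them back when sterol is plentiful. Liver X receptors (LXR) sense oxidised sterols and turn on the exporters Abca1 and Abcg1. Cultured fibroblasts are the cells in which the sterol feedback on synthesis and uptake was first worked out.

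Sterol genes split in both directions and did not move as a block. Of the 33 genes, 12 were higher and 11 lower in shNr4a3 than in shNT at an adjusted p under 0.05 (edgeR), and 10 did not pass. That is 69.7% called, on a background in which 55.5% of all 13160 tested genes were called, 27.6% as higher and 27.9% as lower. The median log2 fold change was 0.06 over the 33 genes and 0.0044 over all tested genes; with 1 library left out the median of the 33 ran from 0.012 (without shNr4a3 replicate 1) to 0.14 (without shNT replicate 2), and it was 0.027 without shNT replicate 1. By CPM the groups did not overlap in 27 of the 33 genes, shNr4a3 being above shNT in 14 and below it in 13, or 81.8% against 77.2% of all tested genes. Most changes were small. Only Abcg1 and Nr1h2 passed with a log2 fold change of 1 or more in size, against 11.5% of all tested genes. In the authors' deposited table, whose p-value asks for more than a log2 fold change of 0.5, 4 of the 33 genes had an adjusted p under 0.05 (Srebf1, Lrp1, Abcg1 and Nr1h2), where 10.7% of the tested genes did.

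**Figure D1:**
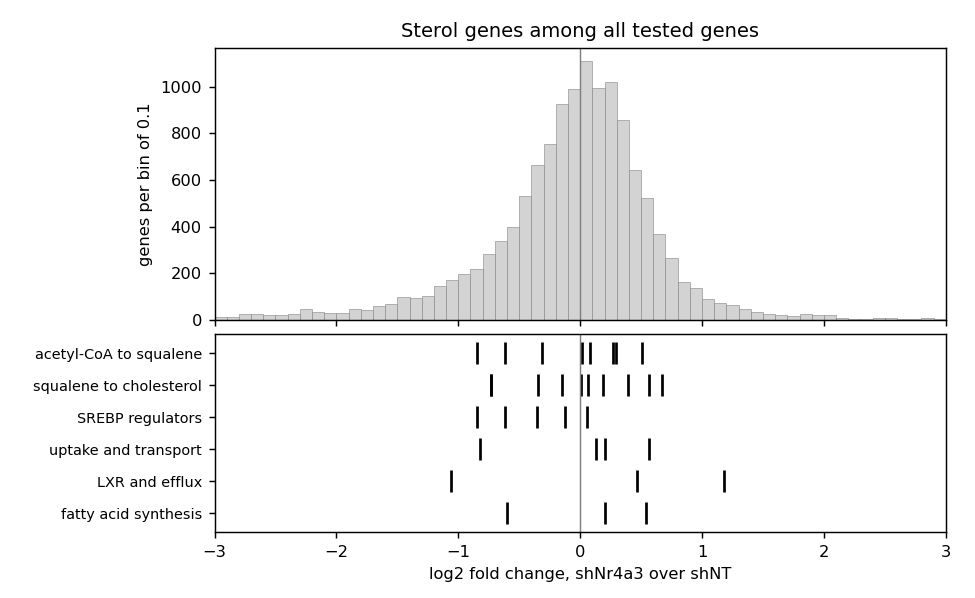
Upper panel, number of tested genes per bin of 0.1 of the log2 fold change (shNr4a3 over shNT), with 130 genes beyond an absolute value of 3 not drawn; lower panel, 1 tick for each sterol gene by group. The ticks lie on both sides of 0 in every group, between -1.06 (Nr1h2) and 1.18 (Abcg1), within the body of the distribution of all genes.

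The early part of the synthesis route, from acetyl-CoA to squalene, had 2 genes higher, 2 lower and 4 that did not pass. Of all tested genes 55.5% passed. Acat2, the cytosolic thiolase that joins acetyl-CoA units, had 473 and 548 counts in shNr4a3 and 803 and 896 in shNT. The groups did not overlap, at 14.2 ± 1.27 CPM in shNr4a3 and 25.5 ± 1.26 CPM in shNT (SD, n = 2 each), and the gene fell by 0.84 on the log2 scale (SE 0.12; adjusted p = 3.26e-07). Hmgcs1, HMG-CoA synthase, which makes the next intermediate, went the other way, with 2427 and 2607 counts in shNr4a3 and 1892 and 1985 in shNT, all shNr4a3 values above the shNT values once scaled (log2 fold change 0.27 ± 0.08; adjusted p = 0.0035). That call was lost without shNr4a3 replicate 2 (0.23, adjusted p = 0.104). The 3 genes that follow did not pass. Mvk, mevalonate kinase, had 894 and 829 counts in shNr4a3 and 770 and 738 in shNT (0.08 ± 0.11, adjusted p = 0.545). Pmvk, phosphomevalonate kinase, had 320 and 320 counts in shNr4a3 and 208 and 277 in shNT (0.29 ± 0.17, adjusted p = 0.159), with no overlap by CPM, and passed without shNT replicate 2 (0.48, adjusted p = 0.0333). For Mvd, the decarboxylase that makes isopentenyl diphosphate, the shNT libraries stood further apart (359 and 557 counts) than the groups did, with 492 and 506 counts in shNr4a3. Its log2 fold change was 0.02 ± 0.15, and -0.24 without shNT replicate 1.

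Idi1, the isomerase of isopentenyl diphosphate, had 681 and 613 counts in shNr4a3 and 375 and 469 in shNT, and rose by 0.51 ± 0.13 (adjusted p = 0.0017). Both shNr4a3 values lay above both shNT values, and the call was lost without shNr4a3 replicate 1 (0.42, adjusted p = 0.0609). Fdft1, squalene synthase, which commits the route to sterols, had 766 and 789 counts in shNr4a3 and 844 and 949 in shNT. It fell by 0.32 (SE 0.11; adjusted p = 0.0117), a call lost without either shNr4a3 library (adjusted p = 0.0932 and 0.0795), with library totals only (-0.20) and with a gene length correction (-0.19). Of its exon bases 18.3% lie opposite those of Ctsb in GENCODE M21, and whether the counting used strand is not given in the sources used here. Fdps, farnesyl diphosphate synthase, was the least abundant of the 33 genes, with 17 and 20 counts in shNr4a3 and 15 and 38 in shNT. Its groups overlapped (-0.62 ± 0.60, adjusted p = 0.401) and its fold change turned to 0.16 without shNT replicate 2. Fdps shares 26.7% of its exon bases with Gm43738 on the same strand, so that reads of these bases could be counted for neither gene, and its level is uncertain.

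The later part, from squalene to cholesterol, had 3 genes higher and 3 lower of 10, where 55.5% of all tested genes passed. Sqle, squalene epoxidase, which takes the first oxygen-dependent step, had 58.2 and 56.8 CPM in shNr4a3 and 59.2 and 55.0 CPM in shNT. The shNr4a3 values lay inside the shNT range (log2 fold change 0.01 ± 0.08, adjusted p = 0.922). Lss, lanosterol synthase, the enzyme that closes the rings, had 1266 and 1337 counts in shNr4a3 and 1073 and 1046 in shNT (0.19 ± 0.09, adjusted p = 0.0876); it passed without shNT replicate 1 (0.24), with library totals only (0.30) and with a gene length correction (0.22). Cyp51, the demethylase that acts on lanosterol, had 1354 and 1415 counts in shNr4a3 and 2147 and 2100 in shNT. This gap was far wider than that between replicates, with 38.6 ± 0.65 CPM in shNr4a3 and 63.9 ± 2.79 CPM in shNT (SD, n = 2 each; log2 fold change -0.73 ± 0.08, adjusted p = 5.02e-09). Tm7sf2, a sterol reductase, had 149 and 99 counts in shNr4a3 and 197 and 184 in shNT, and fell by 0.73 (SE 0.23; adjusted p = 0.0089). Without shNr4a3 replicate 2 its call was lost (-0.45, adjusted p = 0.205). Tm7sf2 shares 12.1% of its exon bases with Vps51 on the same strand.

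The sterol trimming enzymes that follow were mixed. Msmo1, a methylsterol oxidase, had 54.4 and 58.5 CPM in shNr4a3 and 62.4 and 62.5 CPM in shNT and did not pass (-0.15 ± 0.08, adjusted p = 0.111). Nsdhl, the dehydrogenase that removes the oxidised methyl group, had 758 and 769 counts in shNr4a3 and 575 and 780 in shNT. These groups overlapped (0.06 ± 0.12, adjusted p = 0.673). Hsd17b7, the ketoreductase of the same step, had 1211 and 1130 counts in shNr4a3 and 1262 and 1494 in shNT, and fell by 0.34 (SE 0.09; adjusted p = 0.0023), a call lost without shNr4a3 replicate 2 (adjusted p = 0.0738). The last 3 enzymes of the list each rose. Ebp, the sterol isomerase, had 994 and 975 counts in shNr4a3 and 645 and 587 in shNT (0.56 ± 0.11, adjusted p = 6.03e-05). Sc5d, the sterol desaturase, had 2850 and 2871 counts in shNr4a3 and 1610 and 1719 in shNT, which is 79.7 ± 0.72 CPM in shNr4a3 against 50.03 ± 0.92 CPM in shNT (SD, n = 2 each). Its rise of 0.67 ± 0.08 on the log2 scale (adjusted p = 5.62e-09) was the largest among the 18 synthesis enzymes. Dhcr7, the reductase that yields cholesterol, had 836 and 981 counts in shNr4a3 and 660 and 619 in shNT (0.39 ± 0.11, adjusted p = 0.0037), a call lost when shNr4a3 replicate 2 was left out (0.29, adjusted p = 0.138).

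**Figure D2:**
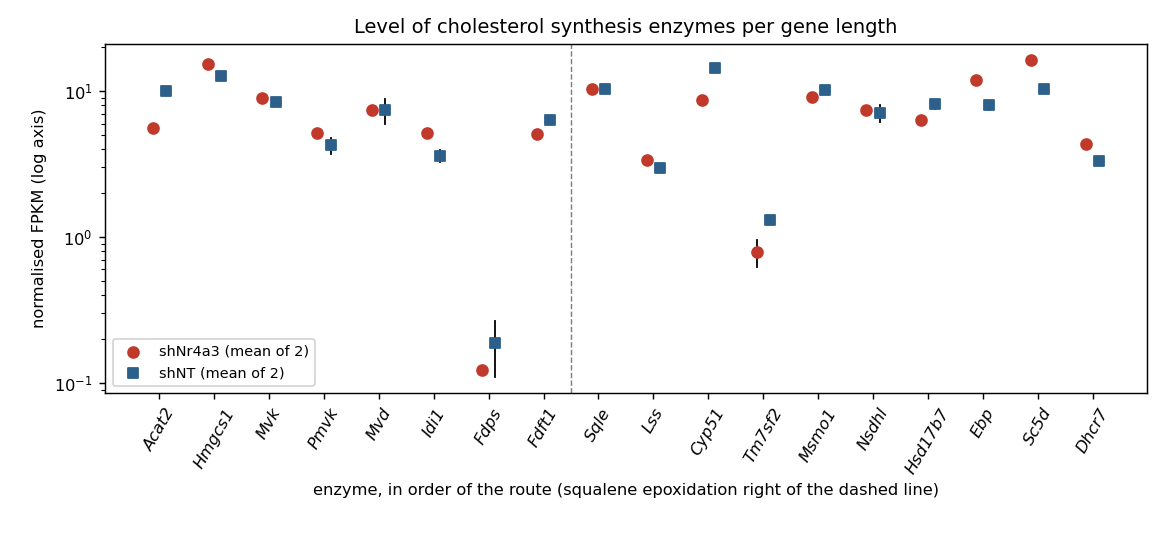
Level of the 18 synthesis enzymes in normalised FPKM (log axis), computed from the counts and GENCODE M21 exon lengths, in the order of the route; circles are shNr4a3 means, squares are shNT means, and black lines join the 2 libraries of a group. Cyp51 is lower in shNr4a3 (8.73 FPKM, against 14.5 in shNT), Sc5d is higher (16.4 FPKM, against 10.3 in shNT), and Fdps lies far below the others at 0.122 FPKM in shNr4a3 and 0.188 FPKM in shNT.

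Per exon length, the synthesis enzymes other than Fdps spanned a level of 0.786 FPKM (Tm7sf2) to 16.4 FPKM (Sc5d) in shNr4a3 and of 1.30 FPKM (Tm7sf2) to 14.5 FPKM (Cyp51) in shNT. The 18 enzymes together held 548 and 551 CPM in shNr4a3 and 534 and 543 CPM in shNT. These sums lay close together while single enzymes moved apart, with 5 genes higher, 5 lower and 8 that did not pass, and a median log2 fold change of 0.04. That median moved to -0.022 without shNT replicate 1, to 0.15 without shNT replicate 2 and to 0.018 without shNr4a3 replicate 1. The share called among the enzymes, 55.6%, was close to the 55.5% of all genes.

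**Figure D3:**
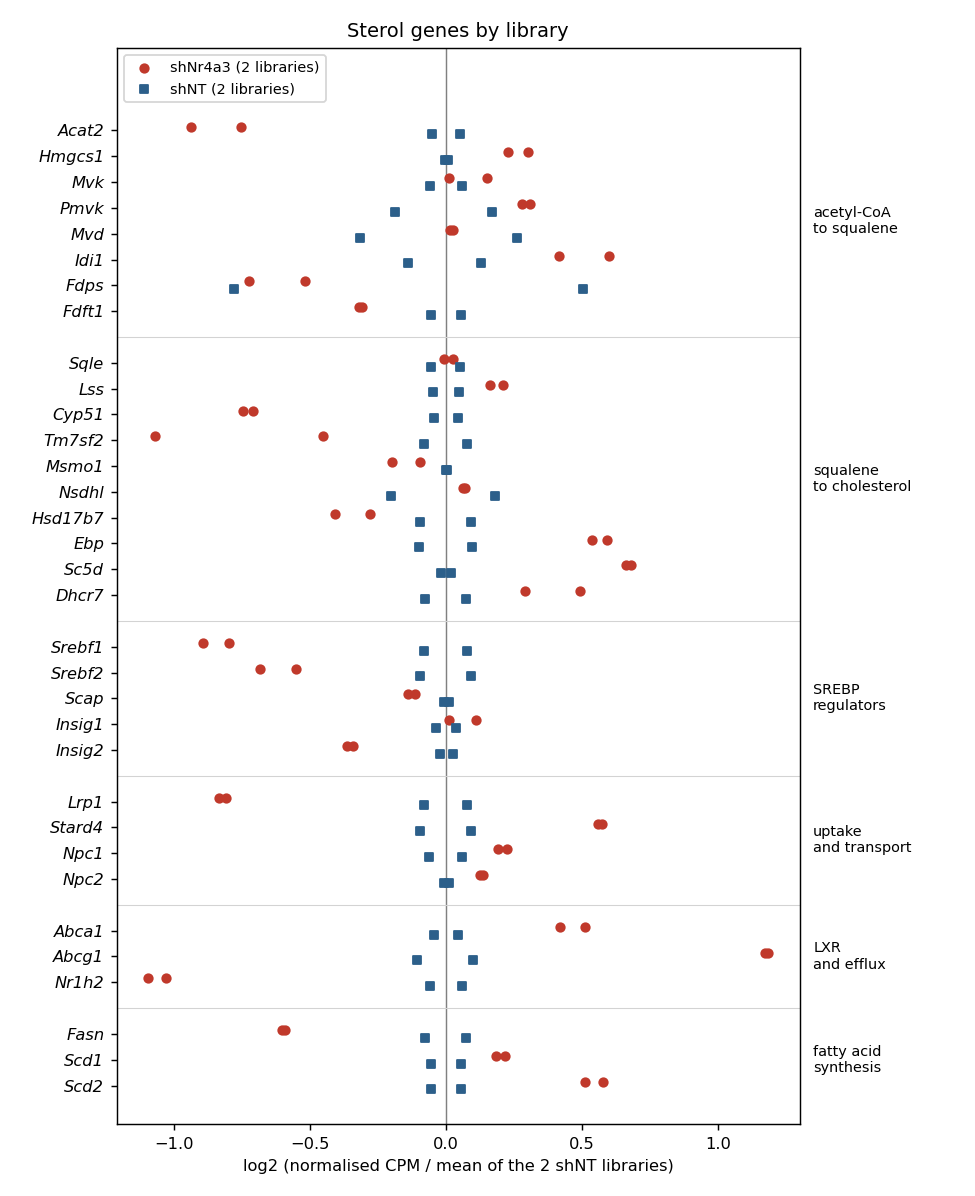
Each gene's normalised CPM in each library, as the log2 ratio to the mean of the 2 shNT libraries; circles are shNr4a3 libraries, squares are shNT libraries, and genes run down the page in pathway order. The circles of Abcg1, Nr1h2, Lrp1 and Srebf1 lie far outside the shNT pair, and those of Mvk, Mvd, Fdps, Sqle, Nsdhl and Insig1 overlap it.

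Of the 5 SREBP regulators 3 fell, 2 did not pass and none rose. Among all tested genes 55.5% passed, 27.6% as higher and 27.9% as lower. Srebf1 (GRCm38 chromosome 11, 60199089 to 60222581, minus strand), whose product drives fatty acid and sterol genes, had 1513 and 1442 counts in shNr4a3 and 2542 and 2374 in shNT. Both shNr4a3 libraries lay well below both shNT libraries, at 41.2 ± 1.98 CPM in shNr4a3 against 74.0 ± 5.64 CPM in shNT (SD, n = 2 each), a fall of 0.85 on the log2 scale (SE 0.08; adjusted p = 2.23e-10). Srebf2 (chromosome 15, 82147181 to 82205379), the main regulator of the cholesterol route, had 3074 and 3437 counts in shNr4a3 and 4821 and 4409 in shNT. It fell by 0.62 (SE 0.07; adjusted p = 1.12e-08), again without overlap. Scap, the escort protein, had 86.1 and 87.6 CPM in shNr4a3 and 95.4 and 94.1 CPM in shNT, a difference of -0.13 ± 0.07 that did not pass (adjusted p = 0.117). Insig1, itself a known SREBP target, had 57.4 and 53.6 CPM in shNr4a3 and 51.9 and 54.6 CPM in shNT. These ranges overlapped (0.06 ± 0.08, adjusted p = 0.546). Insig2, which is not under the same sterol control, had 1202 and 1207 counts in shNr4a3 and 1374 and 1478 in shNT and fell by 0.35 (SE 0.09; adjusted p = 0.0010). Of these genes Insig1 was the most abundant per exon length in shNr4a3, at 17.95 FPKM, and Srebf2 in shNT, at 19.3 FPKM.

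Upstream sequences are shown for genes of both directions, because the CCAAT box and the GC box each stood before genes that rose and genes that fell. RefSeq promoters on GRCm38.p6 were found for 25 of the 33 genes, and the 250 bases before each annotated start were searched on both strands. The words were the sterol regulatory element core TCACNCCAC, the CCAAT box, which reads ATTGG on the other strand, the GC box GGGCGG, which reads CCGCCC there, and the NR4A monomer element AAAGGTCA. The CCAAT box stood before 20 of the 25 genes (80%), against 37.5% of the 27025 genes in the promoter table, and the GC box before 22 (88%), against 35.4%. By call, the CCAAT box stood before 6 of 7 genes that rose, 7 of 10 that fell and 7 of 8 that did not pass. The sterol element core was found before Hmgcs1 alone (4%, against 1.22% of all genes), and the NR4A element before none of the 25 (against 1.55% of all genes). Both words are so rare among all genes that their counts in 25 genes cannot set the list apart, and nothing is concluded from them. These are matches of letters, not tested sites, and base composition was not taken into account. The counts include windows that overlap annotated exons of the same gene, as that of Tm7sf2 does over all 250 bases. The background was every gene with a promoter entry, not only the genes tested here. The genes below are those with the smallest p-values that had an entry with no annotated exon in the window, and Hmgcs1, which was added for its match; capitals mark every match of these words, and the last base stands just before the start. Srebf1 has 3 annotated starts, and the one shown has both a CCAAT box and GC boxes.
Lrp1 (chr10:127621149-127621398, minus strand): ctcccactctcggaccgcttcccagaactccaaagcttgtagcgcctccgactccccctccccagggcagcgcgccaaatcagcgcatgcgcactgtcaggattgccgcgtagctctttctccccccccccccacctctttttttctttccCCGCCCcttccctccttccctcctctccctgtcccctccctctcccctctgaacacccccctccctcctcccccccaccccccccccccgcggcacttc
Nr1h2 (chr7:44553966-44554215, minus strand): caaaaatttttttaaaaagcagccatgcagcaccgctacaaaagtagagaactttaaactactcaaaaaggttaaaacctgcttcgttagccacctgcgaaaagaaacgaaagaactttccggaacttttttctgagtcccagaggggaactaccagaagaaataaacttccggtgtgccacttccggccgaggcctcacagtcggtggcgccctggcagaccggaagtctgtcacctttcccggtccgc
Srebf1 (chr11:60210472-60210721, minus strand): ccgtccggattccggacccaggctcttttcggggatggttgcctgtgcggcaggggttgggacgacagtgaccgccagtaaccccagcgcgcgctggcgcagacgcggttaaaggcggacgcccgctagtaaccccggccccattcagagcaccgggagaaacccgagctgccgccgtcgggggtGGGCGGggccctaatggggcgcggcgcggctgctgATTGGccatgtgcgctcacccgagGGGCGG
Fasn (chr11:120824548-120824797, minus strand): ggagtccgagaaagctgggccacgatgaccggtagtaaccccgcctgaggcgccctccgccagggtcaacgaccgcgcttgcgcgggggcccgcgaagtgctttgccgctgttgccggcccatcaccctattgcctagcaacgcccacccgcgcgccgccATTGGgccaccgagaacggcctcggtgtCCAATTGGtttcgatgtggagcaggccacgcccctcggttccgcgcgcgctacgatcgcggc
Sc5d (chr9:42264301-42264550, minus strand): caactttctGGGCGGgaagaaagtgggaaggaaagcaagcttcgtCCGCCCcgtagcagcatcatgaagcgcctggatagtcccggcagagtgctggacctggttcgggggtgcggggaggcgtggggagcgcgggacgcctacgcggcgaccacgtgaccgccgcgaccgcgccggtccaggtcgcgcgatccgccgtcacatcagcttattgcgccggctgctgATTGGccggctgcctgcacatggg
Hmgcs1 (chr13:119690101-119690350, plus strand): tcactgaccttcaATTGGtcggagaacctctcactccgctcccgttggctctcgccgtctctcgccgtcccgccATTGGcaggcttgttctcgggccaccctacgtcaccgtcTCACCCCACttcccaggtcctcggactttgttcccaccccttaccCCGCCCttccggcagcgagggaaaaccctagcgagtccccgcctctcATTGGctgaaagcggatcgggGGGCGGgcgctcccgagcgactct
Nr1h2, which fell the most, has none of the 4 words in this window. In Fasn 2 CCAAT boxes on opposite strands overlap, and in Hmgcs1 the sterol element core starts 137 bases before the start, with CCAAT boxes on both sides of it.

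All 4 uptake and transport genes passed, 3 as higher and 1 as lower, where 55.5% of all tested genes passed. Lrp1 (chromosome 10, 127538161 to 127621148, minus strand), a large endocytic receptor that takes up lipoprotein remnants and many other ligands, was the most abundant of the 33 genes by count, with 42362 and 42512 counts in shNr4a3 and 71889 and 66991 in shNT. Its level was 1182 ± 13.9 CPM in shNr4a3 and 2090 ± 163 CPM in shNT (SD, n = 2 each), a fall of 0.82 on the log2 scale (SE 0.05; adjusted p = 2.63e-14), the smallest p of the 33. Stard4, a carrier that moves cholesterol through the cytosol and is a known SREBP target, had 6196 and 6385 counts in shNr4a3 and 3610 and 4266 in shNT. It rose by 0.57 ± 0.07 (adjusted p = 1.04e-08), with both shNr4a3 libraries above both shNT libraries. Npc1 and Npc2, which together pass cholesterol out of the lysosome, rose by little. Npc1 had 135 and 138 CPM in shNr4a3 and 124 and 114 CPM in shNT (0.21 ± 0.06, adjusted p = 0.0070), and lost its call without either shNr4a3 library (adjusted p = 0.0776 and 0.137). Npc2 had 416 and 418 CPM in shNr4a3 and 379 and 383 CPM in shNT (0.13 ± 0.05, adjusted p = 0.0382). Its call was lost without either shNr4a3 library (adjusted p = 0.286 and 0.322), with a stricter count filter (adjusted p = 0.0550) and with the replicate number as a block (adjusted p = 0.0733). Per exon length, Npc2 (76.7 FPKM) and Lrp1 (66.7 FPKM) were the most abundant of the 33 genes in shNr4a3, and in shNT the order was turned, with Lrp1 at 118 FPKM and Npc2 at 70.1 FPKM.

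The exporters rose while the LXR gene of the list fell. This group holds only 3 genes, and whether LXR acted on the exporters was not tested. Abcg1 (chromosome 17, 31057675 to 31117988), a transporter that hands cholesterol to high-density lipoprotein, had 1194 and 1229 counts in shNr4a3 and 520 and 469 in shNT. At 33.7 ± 0.21 CPM in shNr4a3 and 14.9 ± 1.501 CPM in shNT (SD, n = 2 each) it was 2.27-fold higher, with a log2 fold change of 1.18 ± 0.11 (adjusted p = 9.25e-11), the largest rise of the 33 genes. Abca1, the transporter that loads cholesterol onto apolipoprotein A-I, had 3701 and 3538 counts in shNr4a3 and 2454 and 2399 in shNT, and rose by 0.47 ± 0.07 (adjusted p = 1.64e-06). In both genes the lowest shNr4a3 library stood above the highest shNT library. Nr1h2 (chromosome 7, 44549616 to 44553951, minus strand), which encodes LXR beta, had 1372 and 1465 counts in shNr4a3 and 2803 and 2684 in shNT. It was 2.09-fold lower in shNr4a3, at 39.5 ± 1.27 CPM, against 82.6 ± 4.84 CPM in shNT (SD, n = 2 each; log2 fold change -1.06 ± 0.08, adjusted p = 5.87e-13), the largest fall of the 33 genes.

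Fatty acid synthesis showed the same kind of split. Fasn, fatty acid synthase, had 5055 and 5204 counts in shNr4a3 and 7432 and 6947 in shNT, and fell by 0.60 (SE 0.06; adjusted p = 1.21e-09) with no overlap. Scd2, a stearoyl-CoA desaturase that puts the double bond into long saturated chains, had 3294 and 3203 counts in shNr4a3 and 1945 and 2185 in shNT, and rose by 0.54 ± 0.07 (adjusted p = 2.01e-07). Its paralogue Scd1 had 1803 and 1880 counts in shNr4a3 and 1398 and 1573 in shNT, a rise of 0.20 ± 0.08 (adjusted p = 0.0403). The Scd1 call was lost in DESeq2 (adjusted p = 0.0829), with the replicate number as a block (adjusted p = 0.0536), and without shNr4a3 replicate 1 (adjusted p = 0.147), shNr4a3 replicate 2 (adjusted p = 0.226) or shNT replicate 1 (adjusted p = 0.129). Scd1 and Scd2 are close paralogues, and reads that match both could be assigned to either or left out. In shNr4a3 the level of Fasn was 13.1 FPKM, between Scd1 at 10.5 FPKM and Scd2 at 16.6 FPKM, and in shNT Fasn was the highest of them at 19.8 FPKM, against 9.12 FPKM for Scd1 and 11.35 FPKM for Scd2.

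**Figure D4:**
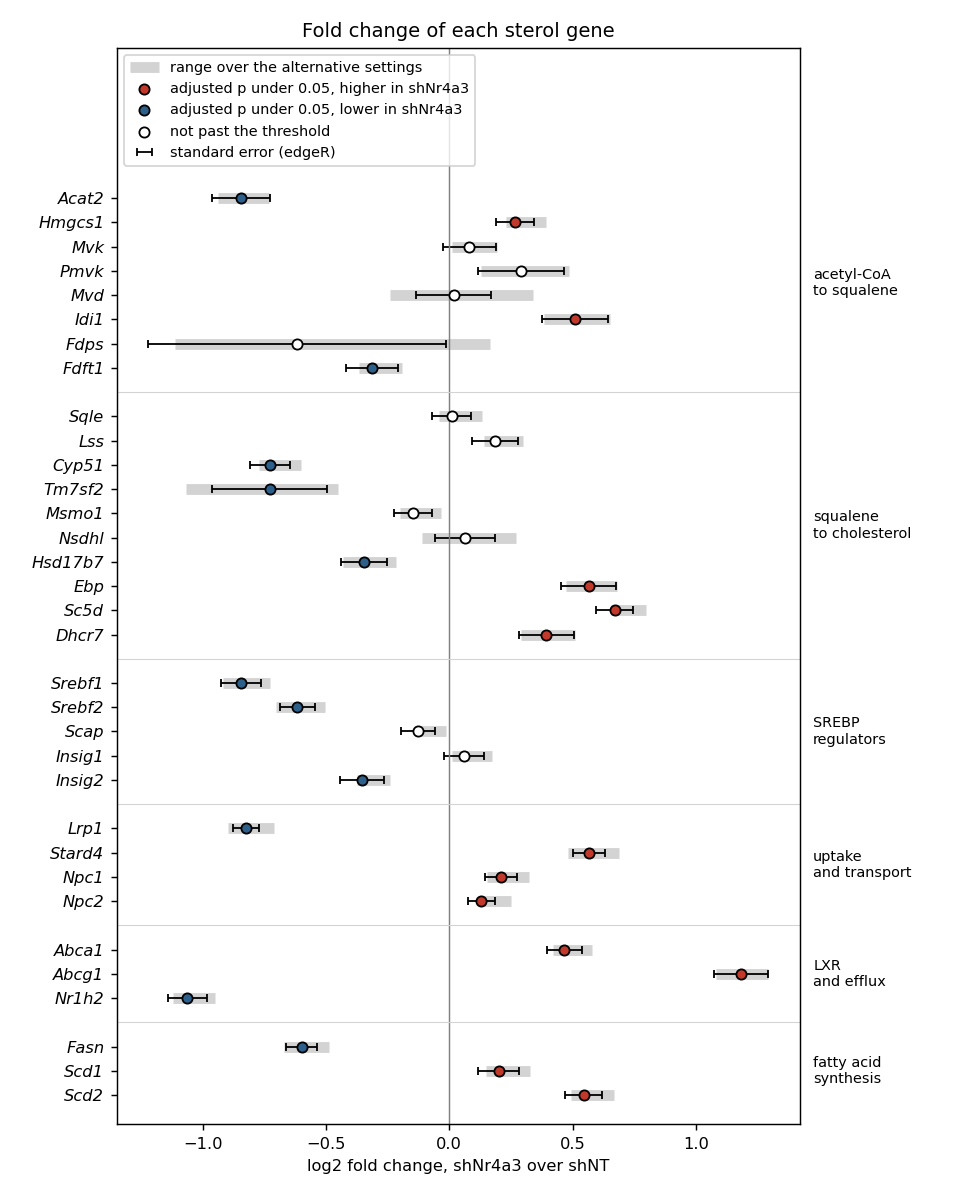
Log2 fold change (shNr4a3 over shNT) of each gene with its standard error from edgeR, over the 4 libraries; filled circles passed an adjusted p of 0.05, as higher (red) or lower (blue), open circles did not, and grey bars span the values under the alternative settings. The grey bars of all 23 called genes stay on their side of 0, and those of Mvd, Fdps, Sqle and Nsdhl, none of which passed, cross it.

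Beside these genes, 42 other listed genes of sterol and lipid handling were counted, of which 7 rose, 16 fell and 19 did not pass, with a median log2 fold change of -0.05. The share called, 54.8%, was close to the 55.5% of all tested genes. Rnf139, a ubiquitin ligase of the endoplasmic reticulum, rose by 0.78 ± 0.10 (1335 and 1433 counts in shNr4a3, 705 and 791 in shNT; adjusted p = 4.44e-08). Scarb1, a receptor for high-density lipoprotein, rose by 0.60 ± 0.09 (1850 and 1692 counts in shNr4a3, 1105 and 1053 in shNT; adjusted p = 1.06e-06), and Erlin1, a lipid raft protein of the endoplasmic reticulum, by 0.52 ± 0.10 (adjusted p = 3.12e-05). Vldlr, a lipoprotein receptor, fell by 1.41 (SE 0.11; 420 and 506 counts in shNr4a3, 1150 and 1127 in shNT; adjusted p = 3.44e-12). Por, which feeds electrons to Cyp51 and Sqle, fell by 0.80 (SE 0.07; adjusted p = 2.30e-11). Mbtps1, the protease that makes the first cut in SREBP, fell by 0.60 (SE 0.07; adjusted p = 3.32e-09).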

How the data were processed

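Sample titles put 2 libraries in shNr4a3 and 2 in shNT. Ribosomal RNA was removed before stranded library preparation, per the labels' protocols, although polyA RNA is named as the molecule. The submitters' processing notes name mm10, Trimmomatic 0.36, featureCounts, Subread 1.5.1 and SAMtools; the aligner and strand setting are not stated there. Raw counts per gene, deposited by the authors, were tested. The deposited FPKM values were not used as levels, since the gene lengths they imply do not match the genes (see the other observations). From the authors' comparison, the deposited log2 values (fold change and error) and p-value were read; recomputing that p-value with 0.5 as the smallest fold change of interest (log2) gave the same values within 4.4e-16. The deposited mean signal and test score were not used.

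The fit used R 4.3.3 and edgeR 4.0.16 (robust quasi-likelihood, TMM factors, group as the only term). After the default filter, which took out 32 genes, 13160 were tested, with Benjamini-Hochberg adjustment over all of them and a threshold of 0.05. The standard error is the fold change divided by the square root of F. FPKM was computed with exon lengths from GENCODE M21 (GRCm38), found for 96.2% of genes. Replicates differed beyond sampling noise (chi-square per gene of 4.00 in shNr4a3 and 11.2 in shNT), so none was taken as a second copy. The common biological coefficient of variation was 6.57%. The fit was tested on simulated data.

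All 33 genes are named, with Nr4a3 and, of the other lipid genes, up to 4 per direction with the smallest p; the values of some genes that this rule names are not reported here. The genes and lists were chosen with earlier results of these data known. Alternatives were DESeq2 1.42.0, limma-voom (limma 3.58.1), other scalings and filters, the replicate number as a block, a gene length correction, a minimum fold and each library left out.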

Additional observations from a re-analysis of the deposited data

How the results depend on the processing

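All 23 called sterol genes kept their sign under the 15 alternatives, and 14 of them kept their call in the 14 settings other than the minimum fold. When a log2 fold change above 0.5 was required, 2 of the 33 genes rose and 5 fell. Of the other lipid genes 1 rose and 2 fell. Of all 13160 tested genes 2101 passed, 750 as higher and 1351 as lower, so falls outnumbered rises there too. Leaving out 1 library gave 7 to 13 genes higher and 8 to 11 lower; the lowest count, 7, came without shNr4a3 replicate 2, and the cause was not tested. Without either shNr4a3 library, fewer of all tested genes were called too, so the drop was not particular to the sterol genes. Among genes that did not pass, the sign of Sqle turned with the stricter filter (-0.0013). It also turned without shNr4a3 replicate 1 (-0.0056) or shNT replicate 2. With 1 library left out the log2 fold change of Sqle ran from -0.040 to 0.067. The same ranges were -0.24 to 0.34 for Mvd and -0.11 to 0.27 for Nsdhl, both turned without shNT replicate 1, and -1.11 to 0.16 for Fdps, turned without shNT replicate 2. Fdps was not tested under the stricter filter. Scaling by library totals moved the median of all genes to 0.12 and the split of all calls to 4702 higher and 2837 lower, from 3635 and 3674; 13 sterol genes were then higher and 10 lower. With the replicate number as a block, 10 sterol genes were higher and 11 lower, and 7151 of the 13160 tested genes were called. Same-numbered libraries did not deviate together (r = -0.04 across genes, 2 pairs), so the number was not taken as a pairing. Depth limits Fdps most, at 15 to 38 counts.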

Other observations

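The deposited FPKM values did not carry the lengths of their own genes. Dividing each value by its count and library total gave a whole number of bases for 100% of genes, within 0.01 bases, but these lengths had no relation to GENCODE M21 exon lengths across 12679 genes (Pearson r of the logs = -0.0038, genes not being independent), and 8.4% were within 10% of them. The counts themselves followed the GENCODE length (r = 0.24) and not the implied length (r = 0.02). For Lrp1 the implied length was 7185 bases, against 17717 exon bases in GENCODE; for Nr1h2 it was 721 against 3354, for Npc2 9458 against 5438 and for Acat2 10451 against 2544. A ranking of genes by the deposited FPKM would differ from the one given here, while fold changes between libraries, in which the length cancels, are not affected.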
